A study of Homo sapiens with 20 samples.

Results

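SR proteins and their TRA2 relatives are RNA-binding splicing factors with domains rich in arginine and serine. The account below covers 10 of their genes: SRSF2, SRSF3, SRSF4, SRSF5, SRSF6, SRSF7, SRSF10, SRSF11, TRA2A and TRA2B. The genes were chosen by name, with earlier results of these data in view, and every skipped exon event listed for them was taken. That gave 75 of 59847 events over 3 splicing tables, at 29 distinct exons. By table, they were 35 of 32990 events for U3 depletion, 25 of 19792 for FUBP1 depletion and 15 of 7065 for FBL depletion. The same 10 genes hold 10 of 28278 rows in a table of FUBP1 RNA immunoprecipitation (RIP).

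The study asked whether 2′-O-methylation of nuclear RNA and its binding protein FUBP1, a splicing factor, affect splicing. The cells were HepG2, a human liver cancer cell line. Poly(A)-selected RNA was sequenced 48 h after 200 pmol of a control siRNA (siCtrl2) or an siRNA to FUBP1 (siFUBP1), and 72 h after 600 pmol of an antisense oligonucleotide (ASO) to GFP, the control, or to U3, a small nucleolar RNA, with 3 libraries in each group. For FBL, the methyltransferase fibrillarin, cells received 200 pmol of its siRNA (siFBL) or of siCtrl for 48 h. FUBP1 RIP and input RNA gave 2 libraries per group, and the inputs gave the third splicing table. The study's methods name no poly(A) selection for RIP and input RNA. All knockdowns were transient, and no control library was shared between the 3 tables. The study's methods call the replicates biological, but the labels tie none to a culture, so p-values measure the spread between these libraries. Libraries are named below by their position in the deposited lists, which carry no replicate number.

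Junction reads ran from 11249641 to 13321799 per library in the U3 table, from 2693397 to 4474350 in the siFUBP1 table and from 910779 to 1142189 in the siFBL input table. FUBP1 itself fell to 0.149 of control in junction reads after siFUBP1, from 45.2, 56.1 and 50.3 reads per 1e+06 junction reads (RPM) to 8.42, 10.1 and 4.08. In the RIP table, FBL had an authors' mean normalized count of 1034 in siCtrl and 164 in siFBL. The liver genes ALB and AFP had at least 12674.5 RPM in every library, and the leukocyte gene PTPRC had no listed event. The level of U3 was not analysed here.

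SR proteins bind exonic enhancers and help the spliceosome recognize exons, and many of them regulate their own transcripts. A poison exon is a conserved exon that brings a premature stop codon, or a splice junction far downstream of the normal stop, into the mRNA. Transcripts that include it are targets of nonsense-mediated decay (NMD), so inclusion lowers the amount of productive mRNA, and excess SR protein is known to favour inclusion in its own transcript.

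Each exon was read in the frame of a coding transcript of GENCODE release 44 on hg38. An in-frame stop codon lay inside 7 exons of 4 genes, SRSF3, SRSF6, SRSF11 and TRA2A. The 104-base exon of SRSF2 lies after the stop codon and moves the last junction from 7 to 111 bases past it, beyond the 50 bases commonly taken to trigger NMD. These 8 exons are called poison exons here. The stretches that carry these features follow, 5′ to 3′ on the gene's strand, each with the last 20 intron bases and then the exon up to its stop codon, which is in capitals. For SRSF2 the capitals mark the last 2 intron bases, before the exon starts. The TRA2A stretch is common to a 312-base and a 301-base form of the exon that differ in their 3′ ends.
SRSF3 456-base exon (chr6:36599801-36599854, plus strand): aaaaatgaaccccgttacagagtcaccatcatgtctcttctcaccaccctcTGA
SRSF6 268-base exon (chr20:43459133-43459304, plus strand): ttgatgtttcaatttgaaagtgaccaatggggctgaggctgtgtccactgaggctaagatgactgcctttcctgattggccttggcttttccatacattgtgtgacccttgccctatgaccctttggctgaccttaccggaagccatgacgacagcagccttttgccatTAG
SRSF2 104-base exon (chr17:76735873-76735895, minus strand): tgcattttccccctttaaAGctg
TRA2A 312-base and 301-base exons (chr7:23522289-23522452, minus strand): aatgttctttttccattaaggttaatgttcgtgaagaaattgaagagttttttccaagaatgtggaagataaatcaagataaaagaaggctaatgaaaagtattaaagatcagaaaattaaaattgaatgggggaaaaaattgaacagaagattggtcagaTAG
SRSF11 109-base exon (chr1:70231075-70231117, plus strand): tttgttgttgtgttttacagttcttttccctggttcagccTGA
SRSF11 117-base exon (chr1:70231839-70231908, plus strand): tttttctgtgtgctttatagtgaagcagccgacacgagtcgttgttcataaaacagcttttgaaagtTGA
SRSF11 33-base exon (chr1:70247097-70247132, plus strand): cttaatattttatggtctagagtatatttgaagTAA

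Read in the canonical frame, inclusion shortens the SRSF3 protein from 164 to 124 amino acids, with the TGA starting at base 32 of the exon. The SRSF6 exon ends the protein at 135 of 344 amino acids, by a TAG at base 150. The TRA2A exon ends it at 59 of 282, by a TAG at base 142. The 3 SRSF11 exons end a protein of 484 amino acids at 119, 128 and 345. The 456-base exon of SRSF3 and the 117-base, 33-base and 312-base exons have a length that is a multiple of 3, so their inclusion alone does not shift the frame and the stop codon comes from the exon itself.

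Read by frame in a coding transcript, the label of poison exons held for SRSF2, SRSF3, SRSF6, SRSF11 and TRA2A only. The events listed for SRSF4, SRSF5, SRSF7, SRSF10 and TRA2B lay at coding exons or at exons whose listed neighbours matched no coding transcript. Of the 29 exons, 10 were coding exons not counted as giving an early stop codon in either form. Another 6, in SRSF4, SRSF5, TRA2A and TRA2B, were coding exons whose skipping gives an early stop codon. Of the 10, all but the 82-base exon of SRSF11 keep the frame in both forms. Skipping of that exon shifts the frame and ends the protein at 390 instead of 484 amino acids. The last junction lies 2 bases past this new stop codon, too near for it to be counted as early. A further 4 were not assigned, since no coding transcript matched their listed neighbours. Of these, the 74-base exon of SRSF5 and the 149-base exon of SRSF6 are each in 4 protein-coding transcripts. The 90-base exon of TRA2A has an in-frame stop but is in 2 protein-coding and 0 NMD transcripts, so it was not counted as a poison exon. The 301-base exon of TRA2A, which was counted, is in 1 NMD transcript and in 1 protein-coding transcript, outside its coding sequence.

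GENCODE marks 6 of the 29 exons (20.7%) as part of NMD transcripts and of no protein-coding one, against 2.81% of all 31955 distinct exons. Among the 8 poison exons, whose definition overlaps with that mark, the number was 5. The remaining exon with the mark was the 165-base exon of SRSF10. It was not counted as a poison exon because no coding transcript matched its listed neighbours. The poison exons ranged from 33 to 456 bases, with a median of 192.5, against 117 for all exons. T made up a median of 43% of the 50 bases before them and 42% before the 29 exons, both within the quartiles of all exons, 28% and 46%. Between their neighbours in the canonical transcript, all 8 were minor forms in GFP ASO libraries, with mean inclusion levels from 0.0226 to 0.237. With other neighbours and fewer reads, GFP ASO means were 0.429 for the 109-base and 1 for the 117-base exon of SRSF11. The 301-base exon of TRA2A was then at 0.911. The inclusion level is the share of inclusion among inclusion and skipping reads after each is divided by its effective length, from 0 to 1. The 165-base exon of SRSF10, not among the 8, had a mean level of 1 in GFP ASO and 0.996 in U3 ASO libraries.

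After U3 depletion, mean inclusion was above control at the 8 events in which a poison exon joins its neighbours in the canonical transcript, by 0.0144 to 0.221. These exons lie in SRSF2, SRSF3, SRSF6, SRSF11 and TRA2A, and 3 of the 8 events were called. A wider definition set out for naming events, by NMD mark or in-frame stop, also takes in the 90-base exon of TRA2A and the 165-base exon of SRSF10. Mean changes were -0.0115 for the first, between canonical neighbours, and -0.0038 for the second, and neither was called. Of all 30110 tested events, 12287 lay above 0, and of 819 events at exons found only in NMD transcripts, 508 did (62%). Of the 35 tested events, 3 were called at an adjusted p under 0.1, against 0.226% of all 30110 tested events, and all 3 were higher, against 0.12% of all events called in that direction. They were the exons of SRSF3, SRSF6 and SRSF2 printed above. The 35 events had a median of 508 reads per library, against 124.5 for all tested events, and the shares were not matched for reads. With limma on log2 odds, without a variance trend or with one on average log odds, 0 of the 35 were called, as were 0 of all events. The genes were chosen with these changes in view, so the U3 values are a description, and no p is given for them. None of the 27 events at coding and other exons was called. Inclusion levels did not overlap between the groups at 6 of the 35 events, against 6.03% of all events.

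SRSF3 encodes the smallest SR protein and is known to promote inclusion of this exon in its own transcript. Its 456-base exon (chr6:36599821-36600276) had inclusion levels of 0.0194, 0.0572 and 0.0476 in the GFP ASO libraries and 0.188, 0.184 and 0.193 in the U3 ASO libraries. Every U3 ASO library lay above every control. The mean rose from 0.0414 ± 0.020 (SD, n = 3) to 0.188 ± 0.0042 (SD, n = 3), a change of 0.147 with an SE of 0.0116. Inclusion reads were, in RPM, 3.64, 10.8 and 9.93 in controls and 37.6, 33.7 and 38.7 after U3 ASO, 4.51 times as many on average. Reads that skip the exon fell from 92, 88.8 and 99.4 to 81.4, 74.6 and 81 RPM, 0.846 of control. Neither set of reads overlapped between the groups.

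SRSF6 is an SR protein with a pair of RNA recognition motifs. Its 268-base exon (chr20:43459153-43459420) stood at 0.069, 0.106 and 0.091 in the GFP ASO libraries and at 0.278, 0.259 and 0.276 in the U3 ASO libraries. The groups did not overlap, and the change was 0.183 with an SE of 0.0123. Inclusion reads went from 14.5, 18.1 and 18.3 RPM to 48.2, 44.7 and 51.7, 2.84 times the control mean. Skipping reads went from 97.7, 76.4 and 91.2 to 62.7, 63.7 and 67.7, 0.732 of control.

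SRSF2 (SC35) autoregulates by splicing in its 3′ UTR. Its 104-base exon (chr17:76735772-76735875) stood at 0.0601, 0.092 and 0.0712 in controls and at 0.163, 0.146 and 0.154 after U3 ASO, with no overlap and a change of 0.0797 (SE 0.0105). Inclusion reads were 1.68 times and skipping reads 0.746 of the control mean, and neither overlapped between the groups. In SRSF3, SRSF6 and SRSF2 alike, more reads joined the poison exon and fewer joined its neighbours directly, at 1207 to 1329 reads per library and event.

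**Figure D1:**
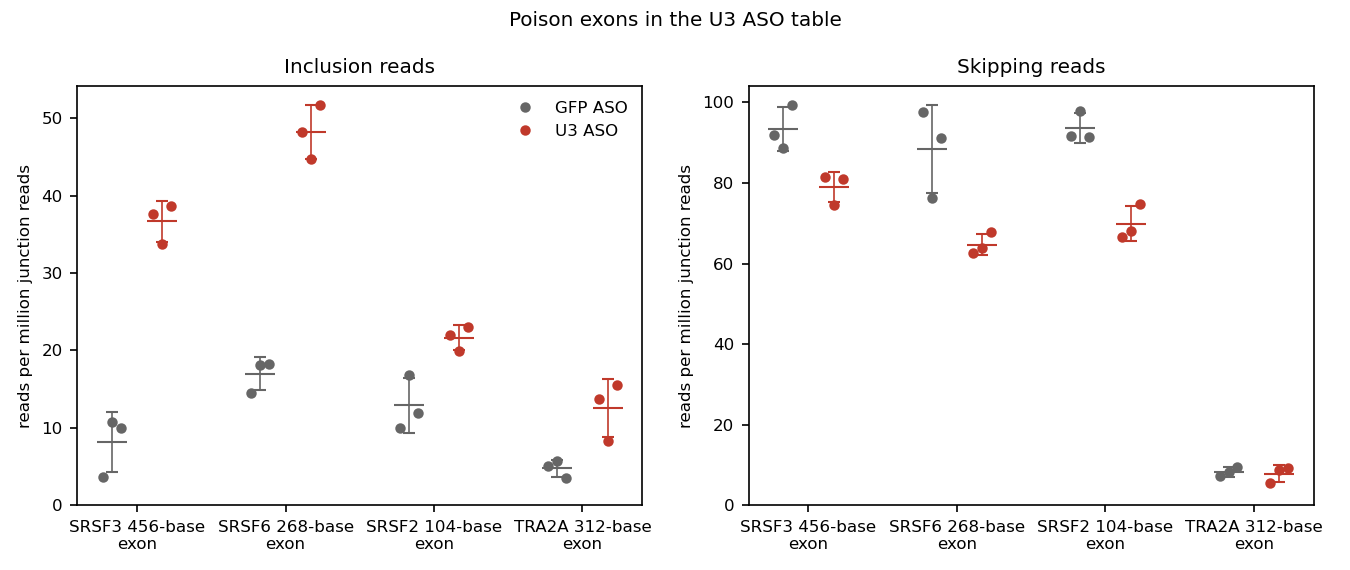
RPM of reads that include (left) or skip (right) 4 poison exons in the GFP ASO and U3 ASO libraries, 1 point per library with the group mean and SD (n = 3). Inclusion reads of all 4 exons lie higher after U3 ASO with no overlap, and skipping reads lie lower with no overlap for SRSF3, SRSF6 and SRSF2 but not for TRA2A.

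TRA2A, which binds GA-rich enhancers, had the highest mean change among the poison exons but fewer reads, 203 per library. The 312-base exon (chr7:23522121-23522432) stood at 0.259, 0.261 and 0.155 in controls and at 0.56, 0.322 and 0.456 after U3 ASO. The groups did not overlap, but the event was not called, and the change of 0.221 had an SE of 0.0771. The 301-base form, which shares the same skipping reads, went from a mean of 0.237 to 0.415 with overlap. In SRSF11, a regulator with an SR-like domain, the 33-base exon stood at 0.0186, 0.0481 and 0.0505 against 0.0882, 0.0836 and 0.0508. The highest control and the lowest U3 ASO library nearly met, and the event was not called. The 117-base exon of SRSF11 went from 0.127 ± 0.066 to 0.187 ± 0.060 (SD, n = 3) with overlap. The 109-base exon of SRSF11 stood at 0.0678, 0 and 0 in controls and at 0.0329, 0.0359 and 0.0421 after U3 ASO, so the highest level was in a control, and the change of 0.0144 had an SE of 0.0228. The 2 controls without an inclusion read had 117 and 186 reads, which allows an unscaled share of up to 2.56% and 1.61%. With the 109-base exon as its upstream neighbour, the 117-base exon had an event at 1 in all controls and a mean of 0.905 after U3 ASO, from 6 skipping reads in 1 library.

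**Figure D2:**
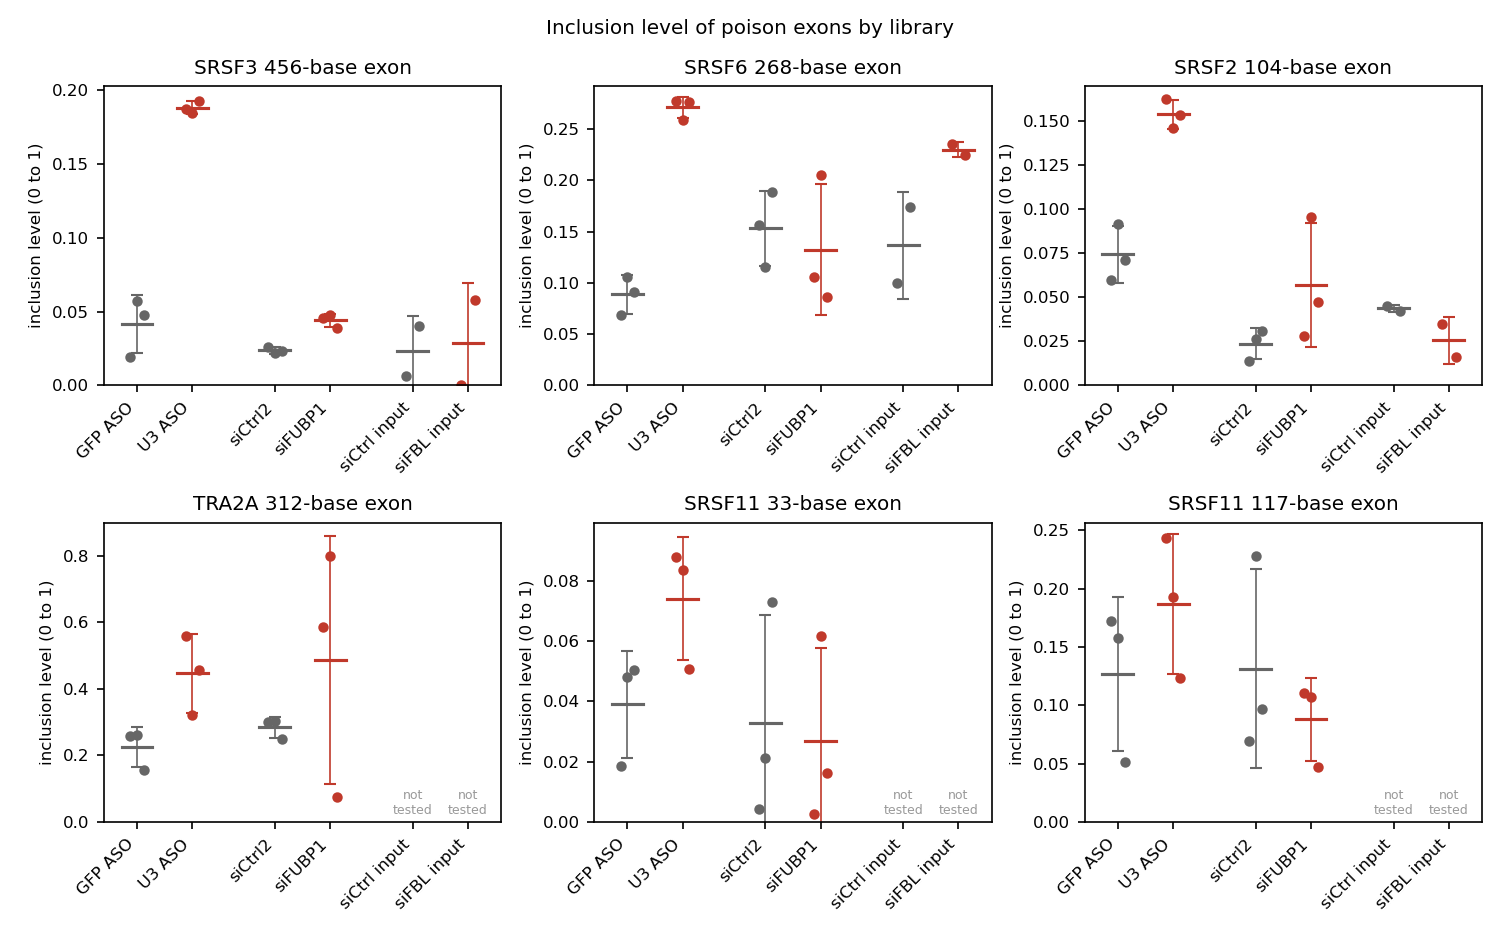
Inclusion level (0 to 1) of 6 poison exons in every library of the tables where the exon was tested, with group means and SD (n = 3, or 2 for the inputs; bars are cut at 0). The exons of TRA2A and SRSF11 were not tested in the inputs and have no points there. SRSF3, SRSF6 and SRSF2 separate clearly between GFP ASO and U3 ASO, while siFUBP1 libraries of TRA2A and SRSF2 spread widely.

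The other SR and TRA2 exons were mostly included in nearly all transcripts, 14 of 18 coding events having a control mean of at least 0.95, and the median change of the 18 was -0.000652. The exon classed as coding and without overlap lay in SRSF10, a factor that represses splicing when dephosphorylated. Its 102-base exon (chr1:23971338-23971439) is in 0 GENCODE transcripts and was classed as coding because it keeps the frame when placed between coding exons. It went from 0.299, 0.262 and 0.263 in controls to 0.369, 0.355 and 0.354 after U3 ASO, with no overlap, but it was not called. SRSF7, an SR protein with a zinc knuckle, had 1 event, a 36-base exon at 0.881 ± 0.016 in controls and 0.871 ± 0.0089 after U3 ASO (SD, n = 3). The 90-base exon of SRSF4 was at 0.954 and 0.926, and the 70-base exon of SRSF5 at 1 and 0.997, both with overlap. Skipping of the 189-base exon of TRA2B, the closest relative of TRA2A, was seen in 2 reads of 1 library, and the 39-base exon of SRSF3 had 1 skipping read in all 6 libraries together. The 82-base exon of SRSF11 and the 189-base exon of TRA2A stayed above a mean of 0.97 in both groups.

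**Figure D3:**
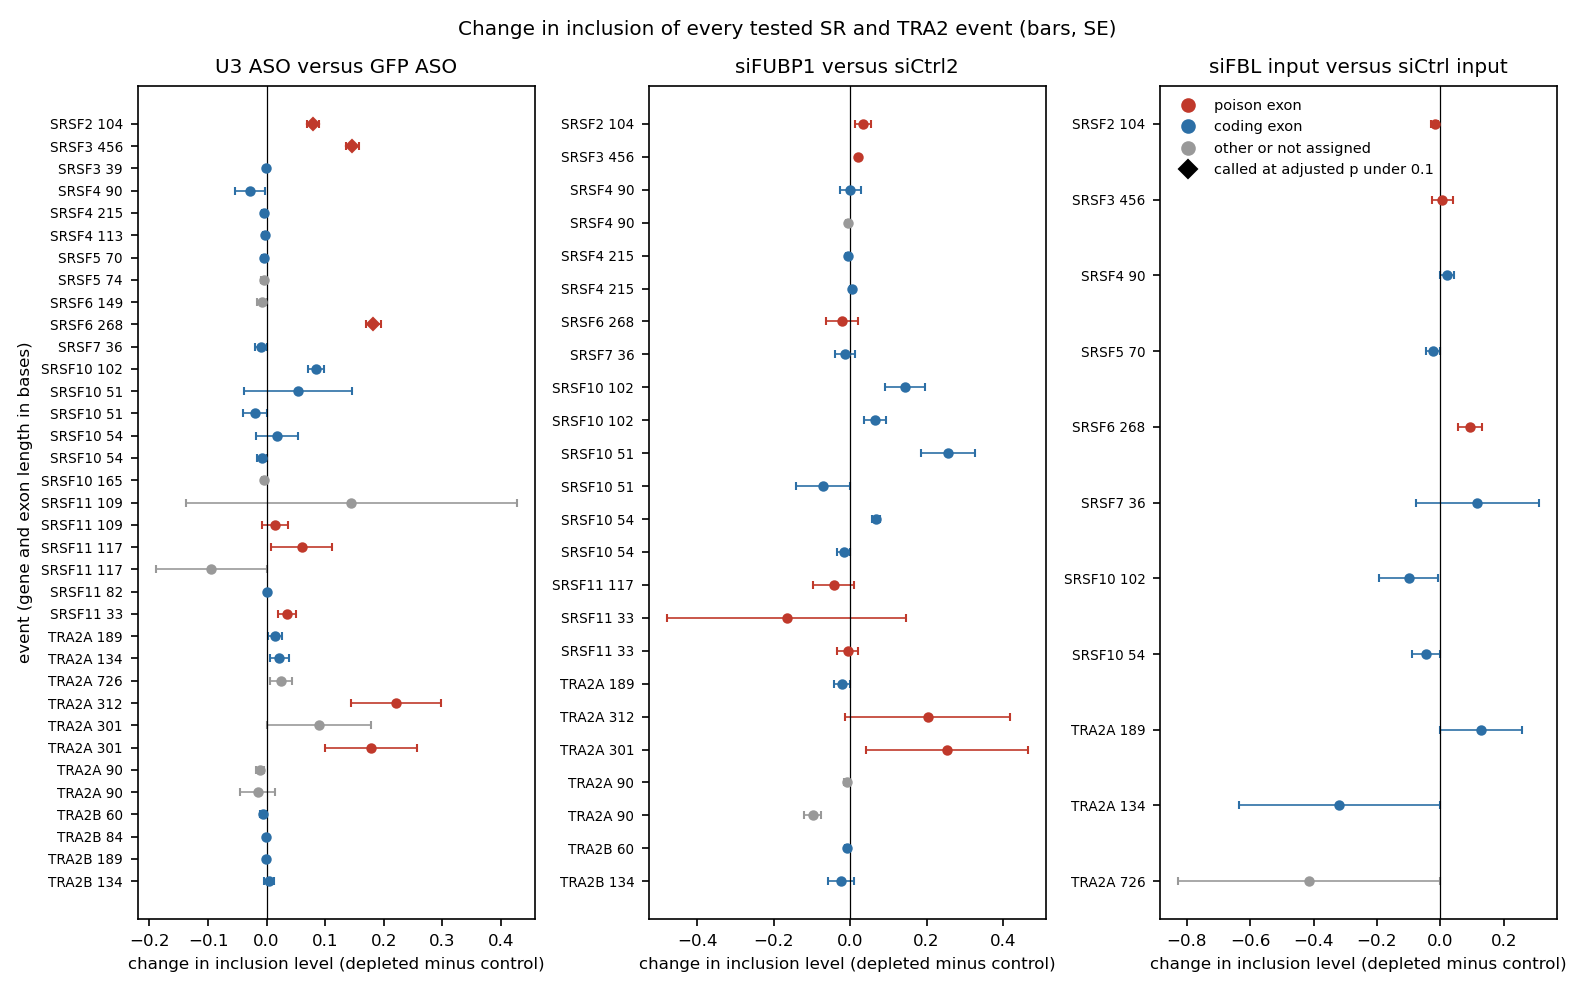
Change in inclusion level (depleted minus control, horizontal axis, bars are SE) of every tested SR and TRA2 event in the 3 tables, by gene and exon length. In the U3 panel the called events (diamonds) are the poison exons of SRSF2, SRSF3 and SRSF6, while the coding exons (blue) range from -0.0285 to 0.0845.

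After depletion of FUBP1, of the 24 tested SR and TRA2 events, 0 were called by the quasi-binomial test moderated with limma, against 0.197% of all 16213 events, and by limma on log2 odds the count was also 0. An unadjusted p under 0.05 was found for 4 of the 24 and for 744 of all 16213. Inclusion levels did not overlap at 5 events, against 5.05% of all. The 8 tested poison exon events lay at 7 exons, with 4 changes above and 4 below 0. The 33-base exon of SRSF11 was counted with different downstream neighbours, at changes of -0.167 on 11.17 reads per library and -0.00598. The 109-base exon of SRSF11 was not tested, so this set differs from the 8 exons described after U3 ASO.

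The SRSF3 456-base exon had levels of 0.0262, 0.0218 and 0.0233 in siCtrl2 and 0.0456, 0.0476 and 0.0388 in siFUBP1 libraries. The groups did not overlap, but inclusion rested on 17 to 30 reads per library, and the change of 0.0202 (SE 0.00296) had an adjusted p of 0.812 by the limma-moderated test. The SRSF2 104-base exon stood at 0.014, 0.0263 and 0.0309 in siCtrl2 and at 0.028, 0.0959 and 0.0473 in siFUBP1. The groups overlapped, with an unadjusted p of 0.0202 and an adjusted p of 0.812 by the same limma-moderated test. The SRSF6 268-base exon averaged 0.153 ± 0.037 over siCtrl2 libraries and 0.133 ± 0.064 over siFUBP1 libraries (SD, n = 3), with overlap, and its change of -0.0209 had an SE of 0.0425. The 312-base exon of TRA2A scattered most, from 0.0732 to 0.8 in siFUBP1 libraries of 22 to 63 reads, against 0.248 to 0.304 in siCtrl2. The SRSF11 exons of 33 and 117 bases also overlapped between the groups.

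SRSF10 held most of the separated events after siFUBP1. Its 102-base exon went from 0.321, 0.39 and 0.457 in siCtrl2 to 0.485, 0.514 and 0.599 in siFUBP1, a change of 0.143 (SE 0.0520). No siFUBP1 library lay below a control, but the adjusted p was 0.760 by the limma-moderated test. Its 51-base and 54-base exons, which share a 3′ end and the same skipping reads, went from 0.738 to 0.994 and from 0.928 to 0.996. In this pair of events, 1 skipping read was left in the 3 siFUBP1 libraries together. With another neighbour, the same exons were at 1 in each siCtrl2 library and had means of 0.929 and 0.983 in siFUBP1, from 1 skipping read. The remaining separated event was the 90-base exon of TRA2A, with 3 to 6 inclusion reads in each siCtrl2 library and 0 in each siFUBP1 library of 3 to 56 reads. The 36-base exon of SRSF7, the 215-base exon of SRSF4, the 134-base exon of TRA2B and the 189-base exon of TRA2A overlapped between the groups. No event of SRSF5 was listed in this table.

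Depletion of FBL was measured in input libraries with fewer reads, and 11 of the 15 listed events could be tested. By the limma-moderated test 0 of the 11 were called, against 0% of all 5218 tested events, and 0 had an unadjusted p under 0.05, while limma on log2 odds also called 0. Inclusion levels did not overlap at 2 events, against 13.8% of all. The SRSF6 268-base exon stood at 0.0998 and 0.174 in siCtrl input and at 0.235 and 0.225 in siFBL input, a change of 0.0933 (SE 0.0373) with an adjusted p of 0.874 by the limma-moderated test. The SRSF2 104-base exon moved the other way, from 0.0451 and 0.0425 to 0.0351 and 0.016, with the same adjusted p of 0.874 by that limma-moderated test.

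The SRSF3 456-base exon had 2 and 5 inclusion reads in siCtrl input, and 0 and 6 in siFBL input. The library without an inclusion read had 70 reads, which allows an unscaled share of up to 4.29%. The exons of SRSF10 (102 bases), SRSF7 (36 bases), SRSF4 (90 bases), SRSF5 (70 bases) and TRA2A (189 bases) overlapped between the groups. A single siFBL input library held all 12 skipping reads of the 134-base coding exon of TRA2A, and the 312-base exon had under 10 reads per library and was not tested. No event of SRSF11 or TRA2B was listed in this table. Whether a change after U3 ASO differed from the change after siFUBP1 or siFBL was not tested, since each table has its own controls and depth. The inputs, without a stated poly(A) selection, may also hold other RNA than the poly(A)-selected libraries.

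Junction reads summed over the listed exons of a gene stand in for its amount of spliced RNA, and an included exon adds reads at 2 junctions. Exons that share neighbours, as in TRA2A, add the same skipping reads repeatedly. In bulk RNA, fewer cells and less RNA per cell cannot be told apart. Over all genes the median ratio of U3 ASO to GFP ASO was 1.20, a shift of 0.26 on the log2 scale, so ratios are read against it. The abundant ALB and AFP were at 0.828 and 0.668 of control, and their part in that shift was not tested. Against that median, 9 of the 10 SR and TRA2 genes lay lower. The exception was TRA2A at 1.26, which was at 1.01, below the median, when only its event with the most reads was counted. SRSF4 then lay above the median. SRSF2 went from 102, 115 and 103 RPM to 88.5, 88 and 97.9, a ratio of 0.858, and TRA2B from 537, 572 and 593 to 469, 495 and 514, a ratio of 0.869. Both were lower in every U3 ASO library than in any control. SRSF4 (1.09), SRSF11 (1.12) and TRA2A had more RPM in every U3 ASO library than in any control, although the first pair rose less than the median gene, so that 5 of the 10 genes did not overlap, against 49.6% of all genes. SRSF3, SRSF5, SRSF6, SRSF7 and SRSF10 overlapped, with ratios from 0.923 to 1.11. FUBP1 itself was at 0.694 of its control after U3 ASO, and its part in the splicing values was not tested.

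After siFUBP1 the median ratio of all genes was 0.970. SRSF3 went from 122, 141 and 123 RPM to 96.6, 100 and 104, a ratio of 0.782, and TRA2A from 123, 108 and 136 to 83.7, 96.8 and 62, a ratio of 0.661. These were the 2 of 9 genes without overlap, against 26% of all genes, and both had an exact two-sided permutation p of 0.1, the smallest that 3 against 3 libraries allow. The other 7 genes had ratios from 0.745 for SRSF4 to 1.02 for SRSF6. The count of 2 became 4 without the second or without the third siCtrl2 library. After siFBL the median ratio was 0.883 (-0.18 on the log2 scale), and 5 of 8 genes did not overlap, against 44% of all. SRSF2 was at 0.595, from 200 and 172 to 108 and 113 RPM, and TRA2A at 0.505, from 225 and 164 to 105 and 91.2. SRSF4 and SRSF6 were at 0.745 and 0.830, and SRSF5 was higher at 1.64, on 28 to 61 RPM. With 2 against 2 libraries the exact permutation test cannot go below 0.33, so no single gene can be called. In SRSF5, 1 siFBL input library alone held 61 RPM and the other 33.4, against 28 and 29.6 in the controls.

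**Figure D4:**
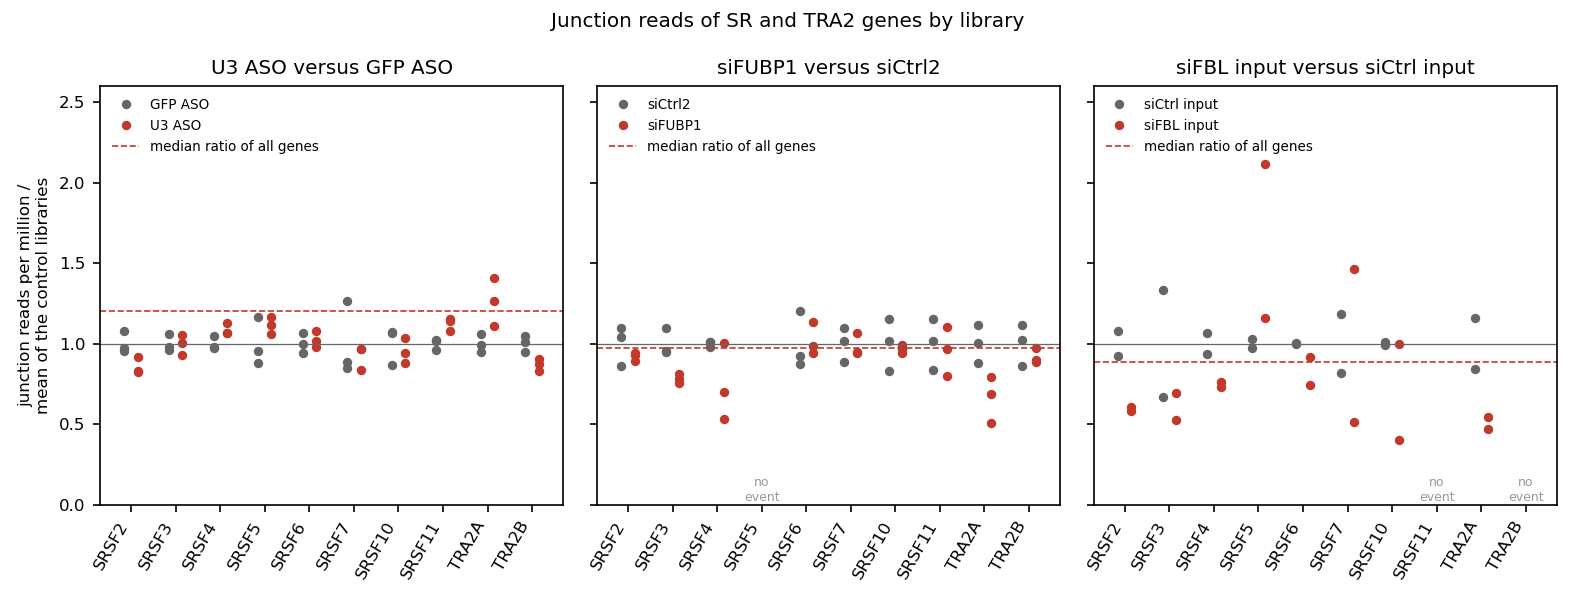
Junction reads (RPM) of the 10 genes in every library, divided by the mean of the control libraries of the table (vertical axis); the dashed line is the median ratio of all genes. Against that line, 9 of the 10 U3 ASO means are lower, and SRSF3 and TRA2A separate after siFUBP1.

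The RIP table gave, for each gene, the authors' mean normalized count in siCtrl and in siFBL cells, without libraries, SD or a shared scale. The study's methods compare RIP with input within each condition, so a mean covers both kinds of library and is not an enrichment. All 10 genes were abundant, from 1863 for TRA2A to 15432 for SRSF11 in siCtrl, at or above the 84.83 percentile of genes with counts in both. The ratio of the siFBL mean to the siCtrl mean was below 1 for 9 of the 10 genes, with SRSF4 at 1.06, and below the median ratio of all genes for 7 of the 10. SRSF3 had the lowest ratio, 0.613, followed by SRSF10 at 0.713 and TRA2A at 0.722. The median of the 10 was 0.787, and the median of all 11907 genes with a siCtrl mean of at least 50 was 0.860, with 34.5% of these genes below the median of the 10. These ratios carry no replicate check.

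Related genes give the background of the pathway. Exons found only in NMD transcripts were called at 11 of 819 events after U3 ASO (1.34%), 10 of them higher, and 3 of the 11 were SRSF2, SRSF3 and SRSF6. Among 18 other RNA-binding protein genes with known autoregulatory exons and tested events, 4 of 91 tested events were called, against 0.226% of all 30110. This list was chosen with earlier results of these data known, so its counts are a description. The 105-base exon of HNRNPDL rose from 0.0182 ± 0.0092 to 0.186 ± 0.033 (SD, n = 3), and the 104-base exon of TIA1 rose from 0.00776 to 0.155. The 171-base exon of HNRNPDL fell by 0.0605, and the 72-base exon of RBM39 fell by 0.0522. After siFUBP1, 2 of 61 events of that list were called, against 0.197% of all 16213. They were the same RBM39 exon, which fell by 0.0575, and a 36-base exon of HNRNPA2B1, which fell by 0.0426. After siFBL, 0 of 24 were called by the limma-moderated test, with 1 at an unadjusted p under 0.05. No event of the SR protein kinases (CLK and SRPK genes) was called among 19, 11 and 4 tested in the 3 tables, with 1, 0 and 0 at an unadjusted p under 0.05. No event of the NMD factors (UPF and SMG genes) was called among 76, 30 and 9, with 4, 1 and 0 at an unadjusted p under 0.05. SRSF1, SRSF8, SRSF9 and SRSF12, the other SR genes, had no tested event.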

How the data were processed

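Skipped exon events of HepG2 libraries were taken from 3 tables that the authors made with rMATS from junction reads, after trimming with Cutadapt and alignment to hg38 with HISAT2 (--reorder --no-unal --pen-noncansplice 12); versions and the annotation are not given in the sources used here. Each deposited list holds whole inclusion and skipping junction reads, 1 per library. The rMATS p-values, FDR and inclusion differences, and the fold changes, errors and p-values of RIP over input by DESeq2, are the authors' comparisons and were not used. The 6 columns of inclusion levels were not used either, since levels were computed from the reads. The authors' mean normalized count of the RIP table (from HTSeq counts per the study's methods, featureCounts per the submitters' processing notes) was treated as a score. Per the study's methods, RIP was compared with input within each condition, so each mean covers both kinds of library, though not by a stated list, and size factors were set separately in siCtrl and siFBL, so the ratio of both is a description.

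The members and gene lists were chosen with earlier results of these data known, and the form of the test was taken from an earlier analysis of them. Events averaging 10 or more junction reads in each library were fitted with a quasi-binomial model. The dispersion was moderated across the table by limma 3.58.1 (R 4.3.3) with a trend along ranked information (reads per library times both shares). Benjamini-Hochberg adjustment ran over all tested events, with calls at an adjusted p under 0.1, two-sided. The fit was tested on simulated data. Events that share flanks share skipping reads. Single genes were compared by exact permutation (scipy 1.17.1). Named are all 10 members and, within each, called events, the poison exon with the most reads and the event with the most reads of a table, while genes of the lists are named when called; the remaining member events printed were chosen after their values were seen. Removal of duplicate reads was not stated, and limits from counts cover counting error only. Sequences were read from hg38 (pysam 0.24.0). Gene counts per library were not analysed here.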

Additional observations from a re-analysis of the deposited data

How the results depend on the processing

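The U3 count of 3 called SR and TRA2 events stayed at 3 with a filter of 20 reads, no filter, a dispersion trend on mean reads, and without each library in turn (3 to 3). limma on log2 odds called 0 of them without a variance trend or with a trend on average log odds, and 3 with a trend on information, an alternative chosen after seeing the data; the cause was not tested. Over all U3 events these forms called 0, 0 and 250 against 68, leaving a library out gave 33 to 60, and in siFUBP1 they called 8, 2 and 75 against 32. In siFUBP1 and siFBL every form called 0 member events. The number of genes without overlap in junction reads after siFUBP1 was 2, and 4 without siCtrl2 replicate 2 or without siCtrl2 replicate 3 (range 2 to 4). Without the 20 deepest events in the total, 4 U3 genes did not overlap.

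None of the 13 named U3 changes turned. Leaving out 1 library cannot turn a change where the groups do not overlap, or where all libraries of 1 group are at a level of 1. The changes of the SRSF11 82-base, SRSF5 70-base, TRA2B 189-base and SRSF3 39-base exons fell to 0 without 1 library. Uncalled changes turned without 1 library in siFUBP1 for the SRSF11 33-base (-0.0235 to 0.0141), SRSF7 36-base (-0.0341 to 0.00238), SRSF6 268-base (-0.0573 to 0.00225) and TRA2B 134-base exons (-0.0424 to 0.00671), and in siFBL for the SRSF7 36-base (-0.0248 to 0.259) and SRSF3 456-base exons (-0.0231 to 0.0346). No paired analysis was possible because the positions in the lists carry no replicate number. Depth limits the siFBL table most, with a median of 24 reads per event and library.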
